A study of Mus musculus with 4 samples.

Results

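The genes for the proteins of the cytosolic ribosome were followed through 4 single-cell libraries of mouse embryonic hearts. They were taken by symbol, as all rows named Rpl or Rps with a number or Rplp in the gene tables of the 4 libraries. Processed copies and the S6 kinase genes were left out, and at least 1000 UMIs over all barcodes were required. Of the 32285 rows, 84 matched by name and 81 reached the minimum, 49 of the large and 32 of the small subunit by their names. Rpl10l had 0 UMIs, while Rpl39l and Rpl3l had 253 and 255. The 81 include 5 genes that are not standard subunits, namely the variants Rpl22l1, Rps27l and Rpl36al, and Rpl7l1 and Rps19bp1, which are related to or bind ribosomal proteins. They leave out Rpsa, Fau and Rack1, which encode ribosomal proteins under other names and were looked at beside them.

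Hearts came from C57BL/6J embryos at E10.5. Wild-type (Wt) embryos gave 2 libraries, Wt1 and Wt2, and embryos homozygous for the Cyp51 I383V allele (Ho) gave Ho1 and Ho2. Cyp51 encodes a demethylase of cholesterol synthesis, and the allele was introduced into the germline by CRISPR/Cas9, which the labels list as the treatment of all 4 libraries. The sources used here do not say how many embryos or litters went into a library, so no p-value below measures the spread between embryos. A p-value between genotypes refers to the spread between libraries. One between gates refers to how far differences of gates varied from library to library. Cells were dissociated with collagenase and red blood cells were lysed before capture. Each captured mRNA was counted once by a unique molecular identifier (UMI) read near its 3′ end, and levels were therefore not divided by mRNA length.

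A ribosome joins a small subunit, which reads the mRNA, to a large subunit, which forms the peptide bond. Each carries one copy of nearly every ribosomal protein, and the P-stalk proteins of the large subunit, which recruit translation factors, are present in several copies. Ribosomal protein mRNAs usually begin with a C followed by a run of pyrimidines, the terminal oligopyrimidine (TOP) start, through which mTOR and LARP1 set their translation. Mutations of several ribosomal protein genes cause Diamond-Blackfan anaemia in people, and the mouse Rpl38 gene is known for its effect on axial patterning.

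The promoters of 5 genes on which the later comparisons turn are shown to let the pyrimidine run be seen. Rps21 (small subunit), Rps27 (small subunit), Rpl38 (large subunit) and Rps12 (small subunit) were among the genes with the larger differences between libraries or genotypes, and Rplp0, the core protein of the P-stalk, had a median log2 ratio over the gates of 0.03 between the Wt libraries, although it was -0.50 in the Crabp1 gate and -0.25 in the Epcam gate. Each sequence is from RefSeq, build GRCm38.p6, and covers 50 bases before and 20 bases from the annotated start of transcription. Capitals mark the longest unbroken run of C and T that covers the start or comes within 5 bases of it.
Rps21: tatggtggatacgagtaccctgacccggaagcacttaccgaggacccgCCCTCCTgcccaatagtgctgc
Rps27: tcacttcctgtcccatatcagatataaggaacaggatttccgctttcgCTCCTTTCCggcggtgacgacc
Rpl38: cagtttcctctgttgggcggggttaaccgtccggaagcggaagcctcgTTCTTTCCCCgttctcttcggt
Rps12: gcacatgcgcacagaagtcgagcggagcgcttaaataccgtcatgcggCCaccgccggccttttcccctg
Rplp0: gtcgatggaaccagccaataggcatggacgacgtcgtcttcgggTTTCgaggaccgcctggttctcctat

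These windows lie at chr2:180257329-180257398 for Rps21 (plus strand), chr3:90213629-90213698 for Rps27 (minus strand) and chr11:114668530-114668599 for Rpl38 (plus strand). That of Rps12 is chr10:23787190-23787259 (minus strand) and that of Rplp0 is chr5:115559417-115559486 (plus strand). The run was 7 bases in Rps21, 9 in Rps27, 10 in Rpl38, 2 in Rps12 and 4 in Rplp0, as the start is annotated.

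A promoter was found for 61 of the 81 genes. A run of at least 8 C or T within 5 bases of the start was present in 22 of the 61 (36.1%), against 9.63% of all 27025 promoters. The letters CCGGAAG, the core bound by ETS factors such as GABP, stood on either strand of the 300-base window in 23 of the 61 (37.7%) and in 9.22% of all promoters. The letters AAGATGG, the core of the YY1 motif, stood in 9 of the 61 (14.8%) and in 6.47% of all. GGGCGG, a box bound by Sp1, was found in 62.3% and 36.2%, and TATAAA in 9.84% and 14.2%. CCGGAAG and AAGATGG can share the letters AAG, and a match describes letters and not binding.

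Cells were sorted into 6 gates by the UMIs of 1 gene each. The gate genes were Tnnt2 (cardiac troponin T of cardiomyocytes), Cdh5 (VE-cadherin of endothelium), Hapln1 (a matrix link protein of the cushions), Crabp1 (a retinoic acid binding protein), Upk3b (a uroplakin of the epicardium) and Epcam (an adhesion molecule of epithelia). Barcodes that passed 2 or more gates were left out of all of them. Of 9654 barcodes of Wt1 within the limits of the study, 5477 fell into 1 gate. In Wt2 these were 4858 of 7618, in Ho1 5196 of 7420, and in Ho2 4046 of 6460. Most barcodes left out as double passed the Cdh5 and Hapln1 gates together, for example 1171 of 1585 in Ho1. The Cdh5 gate was passed by 1142, 1656, 1831 and 987 cells of the Wt1, Wt2, Ho1 and Ho2 libraries, of which 434, 676, 525 and 296 passed no other gate and were used. Doublets and single cells with both mRNAs cannot be told apart here. The deposited tables held 109893733 UMIs for Wt1, 117034633 for Wt2, 127018819 for Ho1 and 107377100 for Ho2.

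Marker genes were checked against the gates. All 8 cardiomyocyte markers were highest in the Tnnt2 gate, all 8 endothelial markers in the Cdh5 gate, all 8 epicardial markers in the Upk3b gate and all 8 epithelial markers in the Epcam gate. For the Hapln1 and Crabp1 gates 7 of 8 were. Summed cardiomyocyte markers stood at 3169 CPM (UMI counts scaled to a common library size) in the Upk3b gate, against 51667 in the Tnnt2 gate and 593 to 854 in the other 4. Epithelial markers summed to 799 CPM in the Upk3b gate, against 1776 in Epcam, and endothelial markers to 495 CPM in the Hapln1 gate, against 2123 in Cdh5. The part of these markers' cells in the gate comparisons was not tested. The Crabp1 gate was not the same population in each library. It held 1994 (Wt1), 316 (Wt2), 25 (Ho1) and 239 (Ho2) cells. Dlx5, a gene of pharyngeal arch mesenchyme, stood there at 37.3, 3.63, 0 and 7.32 CPM. The 8 markers fixed for this gate summed to 345 CPM there but to 621 CPM in the Hapln1 gate, with Twist1 the most abundant. Epcam cells numbered 376, 162, 1 and 260, so the single cell of Ho1 was left out.

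Libraries also differed in sex and in blood RNA. Xist, the transcript of the inactive X chromosome, was counted 31886 times in Ho1 but only 5 (Wt1), 4 (Wt2) and 2 (Ho2) times in the rest. The Y-linked Ddx3y was at 0 UMIs in Ho1 and at 2920, 3321 and 3000 in the rest. All 9 erythroid markers were counted, with Hbb-y the most abundant. Their summed level in the Tnnt2 gate was 4.3 CPM (Wt1), 11.1 (Wt2), 244.8 (Ho1) and 23.3 (Ho2). In the Cdh5 gate it was 110.8, 985.3, 742.8 and 98.4 CPM. The 8 macrophage markers, led by Csf1r, summed to at most 14.5 CPM in any gate. Between 12 and 32 barcodes were shared by each pair of libraries. The part of these differences in the results was not tested.

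Ribosomal protein mRNAs made up 15.9% to 23.3% of all UMIs of a gate, and cardiomyocyte-gated cells had the lowest share in every library. In the Tnnt2 gate 16.8% of the UMIs of Wt1 and 15.9% of those of Wt2 were from the 81 genes, and Ho1 and Ho2 had 17.3% and 16.1%. Shares in the Cdh5 gate were 22.0%, 20.5%, 22.9% and 21.9%. The difference of the Tnnt2 from the Cdh5 gate lay between -5.79 and -4.59 percentage points in the 4 libraries.

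The Upk3b gate was close to the Cdh5 gate, at 21.6% (Wt1), 19.8% (Wt2), 22.6% (Ho1) and 20.9% (Ho2). The Hapln1 gate had 20.5%, 18.7%, 20.7% and 20.2%. It lay between the Tnnt2 and Cdh5 gates in each library. In the Crabp1 gate the share was 23.3% (Wt1), 17.5% (Wt2), 17.7% (Ho1) and 20.1% (Ho2). This was the widest spread of the 6 gates, and the value of Ho1 rests on 25 cells (Wilson 95% interval 17.6% to 17.9%, counting error only). The Epcam gate had 22.0% in Wt1, 19.0% in Wt2 and 23.2% in Ho2.

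**Figure D1:**
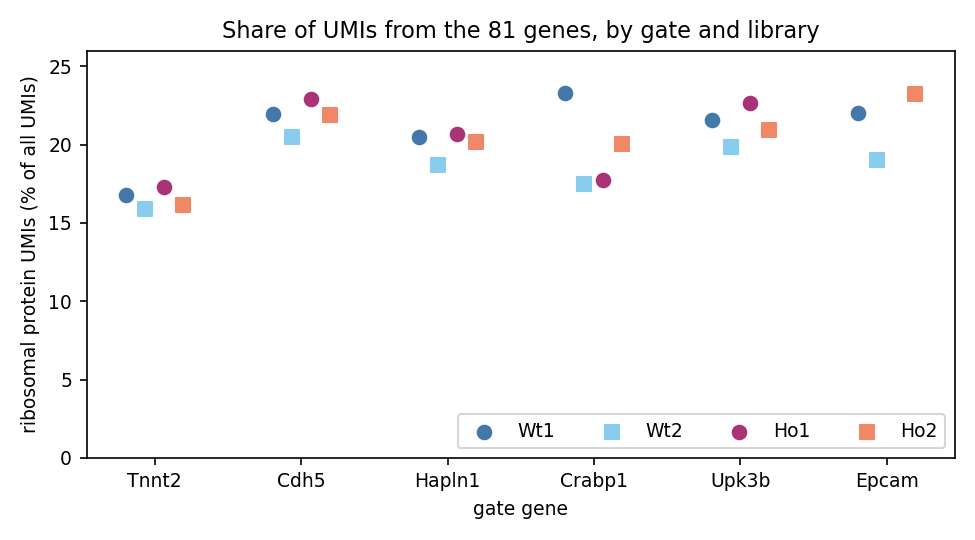
Share of all UMIs that came from the 81 ribosomal protein genes (vertical axis, percent, from 0) in the summed cells of each gate (horizontal axis), with a point for each library. The 4 points of the Tnnt2 gate lie between 15.9% and 17.3%, below every point of the other gates.

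The order of the gates by mean share over libraries was Cdh5, Upk3b, Hapln1 and Tnnt2, and it held in all 4 libraries. The mean difference between the Cdh5 and Upk3b gates was only 0.58 points ± 0.32 (SD, n = 4), and that between the Upk3b and Hapln1 gates was 1.25 ± 0.52 (SD, n = 4). The Crabp1 and Epcam gates had no fixed place in this order. An exact two-sided sign-flip permutation test over 4 libraries cannot give a p-value below 0.125, which was reached by 7 of the 15 pairs of gates (adjusted over 15 pairs, 0.268). With these libraries the test could not pass 0.05. The mean Tnnt2 difference over libraries was below 0 in each alternative tried. Within Ho1, however, the Tnnt2 share was above the Crabp1 share when barcodes of several gates were kept (17.5% and 16.2%, the latter from 82 cells) and by the median over cells (17.3% and 16.9%, the latter from 25 cells).

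Depth and mitochondrial RNA differed with the gates. Mitochondrially encoded genes took 1.49% (Wt1), 1.51% (Wt2), 1.59% (Ho1) and 2.29% (Ho2) of UMIs in the Tnnt2 gate and 1.15%, 1.25%, 1.21% and 1.68% in the Cdh5 gate. Ho2 was the highest library in both gates. In Wt1 the Tnnt2 cells were divided by depth into 4 equal classes, and the shallowest (median 1754 UMIs) had a ribosomal protein share of 20.1%, the next 16.6%. The deepest Tnnt2 class had 17.2% in Wt1. In the Ho libraries the deepest class was the highest instead, with 17.5% in the shallowest and 18.2% in the deepest for Ho1, and 16.6% and 17.1% for Ho2. The shallowest class of the Cdh5 gate of Wt1 had 21.4% and the deepest 22.0%. With only cells of 5000 to 20000 UMIs kept, the Tnnt2 share was still below the Cdh5 share.

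Between the genotypes, the share in the Tnnt2 gate had a mean of 16.3% ± 0.626 (SD, n = 2) for Wt and of 16.7% ± 0.845 (SD, n = 2) for Ho, and the libraries overlapped. In the Cdh5 gate it was 21.2% ± 1.05 and 22.4% ± 0.72, in the Hapln1 gate 19.6% ± 1.26 and 20.4% ± 0.35, and in the Upk3b gate 20.7% ± 1.25 and 21.8% ± 1.22 (SD, n = 2 each). Libraries of the genotypes overlapped in each of these gates (exact two-sided permutation test, p-value 0.667 in each, where 0.333 is the smallest possible, and 0.933 after Benjamini-Hochberg adjustment). In the Crabp1 gate the mean was 20.4% ± 4.08 for Wt and 18.9% ± 1.64 for Ho (SD, n = 2 each, exact permutation p-value 1), and in the Epcam gate the 1 Ho library lay 2.72 points above the Wt mean (exact permutation p-value 0.667). Over all cells within the limits the share had a mean of 19.3% ± 2.11 (SD, n = 2) for Wt and of 19.1% ± 0.397 (SD, n = 2) for Ho (exact permutation p-value 1).

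The most abundant of the 81 mRNAs were Rpl41, with a mean of 7298 CPM over the gated sums, Rps2 (6968), Rps20 (6418), Rps27a (6143) and Rps24 (5532). At the other end stood Rps19bp1 (86.7 CPM), Rpl7l1 (117), Rpl23a (381), Rpl10 (564) and Rpl13a (575). Rpl41 is the smallest protein of the large subunit, and Rps27a is made as a fusion with ubiquitin. Reads of several of these genes can also map to processed copies elsewhere in the genome, so that a low value may be a loss by counting. That was not tested.

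The ratio of small to large subunit UMIs was lowest in the Tnnt2 gate in each library, at 0.737 (Wt1), 0.745 (Wt2), 0.728 (Ho1) and 0.754 (Ho2). It was highest in the Epcam gate, at 0.785 in Wt1, 0.809 in Wt2 and 0.820 in Ho2. Within each gate Ho2 was above the other libraries. The 6 gates of a library share its preparation and are not independent.

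Which genes moved between gates was asked by comparing each gate with the mean of the other 5, in sums per library and gate. The call used edgeR's quasi-likelihood test with the library as a block, TMM scaling and Benjamini-Hochberg adjustment at 0.05 over 13590 genes. Of the 81 genes 39 were higher in the Cdh5 gate and 32 in the Upk3b gate. In the Tnnt2 gate 6 were higher and 17 lower, in the Crabp1 gate 22 were lower, and in the Epcam gate 3 were higher and 13 lower. The Hapln1 gate had 1 lower gene.

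Over all genes tested, the share called higher was 35.5% in the Tnnt2 gate, 26.9% in Cdh5, 24% in Hapln1, 17.7% in Crabp1, 20.2% in Upk3b and 23.5% in Epcam. The share called lower was 31.8%, 25.2%, 19.9%, 20.8%, 20.1% and 22.8% in the same order. In this fit, counts of ribosomal protein genes were above the share over all genes for higher genes in Cdh5 and Upk3b and for lower genes in Crabp1. With cells of 5000 to 20000 UMIs, 61 genes were lower in the Tnnt2 gate, 1 lower in Crabp1, 50 higher in Cdh5 and 17 higher in Upk3b. Of all 12921 genes of that fit 8294, 4673, 6156 and 2709 were called in either direction, in the same order of gates. These counts over all genes were not split by direction, unlike those of the ribosomal protein genes. In the fit of 13590 genes, 48 ribosomal protein genes were higher and 0 lower in the Cdh5 gate at an unadjusted p under 0.05. Of all genes 7791 passed that p there in either direction. DESeq2 also called 0 ribosomal protein genes lower in this gate. In the Crabp1 gate 0 were higher by either tool or at that unadjusted p, and so in the Hapln1 gate.

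Scaling set part of these counts. TMM removes the shift that a few abundant transcripts put on all other genes, and without it (totals of all UMIs) the median log2 fold change of all genes was -0.25 in the Tnnt2 gate and 0.18 in the Epcam gate. On plain totals 0 of the 81 genes were higher and 71 lower in the Tnnt2 gate, while 35 were higher and 8 lower in the Epcam gate. The Cdh5 and Upk3b gates had 40 and 35 higher genes, which included all 39 and all 32 called under TMM, with 1 and 3 lower. The Crabp1 gate had 3 higher and 5 lower. Over all 13590 genes on plain totals, 3191 were higher and 6568 lower in the Tnnt2 gate, and 4785 and 1904 in Epcam. In the Cdh5, Upk3b and Crabp1 gates 3226, 2549 and 3359 were higher and 3878, 2970 and 2052 lower. The median of the 81 genes under TMM was -0.06 in Tnnt2, 0.18 in Cdh5, -0.06 in Hapln1, -0.16 in Crabp1, 0.16 in Upk3b and -0.07 in Epcam, beside medians of all genes from -0.05 to 0.01.

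**Figure D2:**
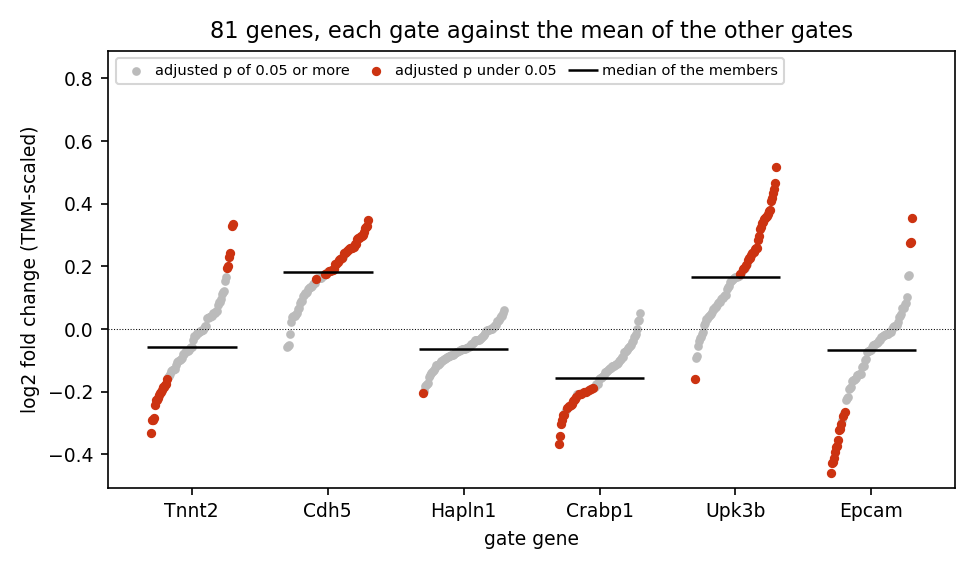
Log2 fold change of each of the 81 genes in a gate against the mean of the other gates (vertical axis, TMM-scaled), with the genes of each gate (horizontal axis) ranked by it. Red points passed an adjusted p of 0.05, grey points did not, and the bar is the median, highest in the Cdh5 gate at 0.18.

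Among the genes higher in the Tnnt2 gate was Rpl36al, a variant of the large subunit protein Rpl36a made from an autosomal gene (log2 fold change 0.33 ± 0.07 SE, adjusted p = 0.00048, higher in 4 of 4 libraries, edgeR), which on plain totals had 0.06 and did not pass. Rps27l, the p53-responsive variant of Rps27, rose by 0.24 ± 0.08 SE (adjusted p = 0.00961, edgeR), but on plain totals its sign turned, to -0.02. Rps27 itself had -0.13, which did not pass, but on plain totals it had -0.40 and passed as lower (edgeR adjusted p = 8.66e-08). Rpl36a had -0.06 and did not pass under TMM.

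Lower in the Tnnt2 gate were, among others, Rplp0 and Rpl7l1. Rplp0 had 4548 CPM (Wt1), 4834 (Wt2), 4370 (Ho1) and 4099 (Ho2) there, and 6093, 6542, 6031 and 5819 CPM in the Cdh5 gate. All 4 values of the Tnnt2 gate lay below all 4 of the Cdh5 gate. Against the mean of the other gates Rplp0 had a log2 fold change of -0.29 ± 0.09 SE (edgeR adjusted p = 0.00922). Rpl7l1, a nucleolar relative of Rpl7, had -0.33 ± 0.09 SE (adjusted p = 0.00179). Without Wt2 or without Ho1, only 2 of the 81 genes were called higher in this gate, and without Ho2 only 6 were called lower.

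Within the Cdh5 gate 39 of the 81 genes were called higher and 0 lower under TMM. Relative to the sum of the 81 genes 12 were higher and 21 lower. That scaling centres these genes as a set, so genes on both sides follow from the scaling itself. Rps24, a gene of Diamond-Blackfan anaemia, led with 6751 CPM (Wt1), 6302 (Wt2), 7692 (Ho1) and 6275 (Ho2). Its Tnnt2 values were 5250, 4796, 5672 and 4437 CPM, all lower. The log2 fold change against the other gates was 0.35 ± 0.06 SE, higher in 4 of 4 libraries (edgeR adjusted p = 8.29e-05). Rpl9, at the base of the large subunit stalk, and Rps20, of the small subunit head, followed with 0.33 ± 0.06 SE and 0.33 ± 0.07 SE. The P-stalk genes Rplp0, Rplp1 and Rplp2 rose together, by 0.26, 0.25 and 0.22. Leaving out Wt2 reduced the 39 called genes to 19.

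Rack1, Rpsa and Fau, which the symbols miss, were each called higher in the Cdh5 gate by edgeR. Rack1, a signalling scaffold on the small subunit, had 0.34 ± 0.09 SE, and Rpsa and Fau had 0.29 and 0.27. In the Tnnt2 gate Rack1, Rpsa and Fau had -0.09, -0.11 and -0.10, and none of them passed (0 at an unadjusted p under 0.05, edgeR), but on plain totals all 3 passed there as lower (-0.36, -0.37 and -0.37). Rack1 was also higher in the Upk3b gate (0.39) and lower in the Crabp1 and Epcam gates (-0.29 and -0.35), where Rpsa and Fau did not pass.

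The Upk3b gate had the largest single rise among the called genes of any gate. Rps15, a small subunit head protein, had 1013 CPM (Wt1), 894 (Wt2), 1219 (Ho1) and 1033 (Ho2), and 781, 660, 932 and 793 CPM in the Cdh5 gate. In each library it was higher in the Upk3b gate. Its log2 fold change was 0.52 ± 0.10 SE (edgeR adjusted p = 0.00025). Rpl7l1 (0.47 ± 0.09 SE) came next. Rpl10, a late-joining protein of the large subunit encoded on the X chromosome, was the 1 lower gene (-0.16 ± 0.06 SE, adjusted p = 0.0430), and it lost the call when any library was left out. Without Wt2 the 32 higher genes became 20.

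In the Crabp1 gate the largest falls were in Rpl22l1, Rpl36al and Rpl39. Rpl22l1, the variant of Rpl22 that can take its place in the large subunit, had 1608 CPM (Wt1), 950 (Wt2), 1010 (Ho1) and 1314 (Ho2). Wt1 stood apart from the other libraries, as it did in cell number. The log2 fold change was -0.37 ± 0.09 SE (edgeR adjusted p = 0.00226), and Rpl22l1 was higher than in the other gates in 1 of 4 libraries. Without Wt1 49 genes were lower in this gate, and without Wt2, Ho1 or Ho2 only 4, 3 and 3 were. The call for most genes of the Crabp1 gate thus rested on which libraries were in the fit.

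Rpl22l1 was higher in the Upk3b gate (0.41) and the Cdh5 gate (0.30) and lower in the Epcam gate (-0.37) and the Crabp1 gate. Rpl22 was called only in the Cdh5 gate (0.31) and had -0.07 in the Epcam gate. Whether the 2 genes differ was not tested. Of the other pairs, under TMM Rpl7 passed in no gate and Rps27 only in the Epcam gate. On plain totals both passed as lower in the Tnnt2 gate (-0.37 and -0.40).

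Epithelial-gated cells, of which Ho1 gave no sum, showed the widest range of values among the 81 genes, from -0.46 to 0.35. Rps27 had 1498 CPM in Wt1, 913 in Wt2 and 1892 in Ho2, and rose by 0.35 ± 0.07 SE (edgeR adjusted p = 0.00023, higher in 3 of 3 libraries). Rps19 and Rps26, both small subunit genes of Diamond-Blackfan anaemia, rose by 0.28 ± 0.07 SE and 0.27 ± 0.10 SE. Rpl36al (-0.46), Rps6 (-0.43), the small subunit target of the S6 kinases, and Rpl4 (-0.42), which lines the exit tunnel, fell. On plain totals the balance of this gate turned, as given above, but these 3 stayed below 0. Without Wt2 only 3 genes were lower in this gate, and without Ho2 only 1 was higher. Other members known from Diamond-Blackfan anaemia or from the p53 response to faulty ribosomes were called in 1 or 2 gates. Rpl5, which carries 5S rRNA into the large subunit with Rpl11, had 0.34 in Upk3b and -0.28 in Epcam, and Rpl11 had 0.26 in Cdh5. Rpl35a had -0.22 in Crabp1. In the Hapln1 gate the called gene was Rps19bp1, a nucleolar binding partner of Rps19 (-0.20 ± 0.07 SE, adjusted p = 0.0242). It lost the call without Wt1, without Ho2 and with no library in the model.

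Lists of other genes of ribosome synthesis were counted in the same fits, with no test of a difference between lists. In the Tnnt2 gate 35.5% of all genes were higher and 31.8% lower. On plain totals 3191 and 6568 of all 13590 genes were. Values over all genes for the other gates are those given above. Of 78 mitochondrial ribosomal protein genes, which serve the separate ribosome of mitochondria, 66 were higher and 2 lower in the Tnnt2 gate, with a median log2 fold change of 0.41 beside 0.00 for all genes. On plain totals 41 were higher and 11 lower, with a median of 0.15 beside -0.25. Mrps9 had 0.69 and Mrpl30 had 0.61. In the Epcam gate 3 of the 78 were higher and 43 lower, and in the Hapln1 gate 2 and 32.

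Of 52 genes of ribosome biogenesis 7 were higher and 28 lower in the Tnnt2 gate (median -0.22), or 0 and 43 on plain totals, and 21 were higher and 1 lower in the Upk3b gate (median 0.24). Rrs1, needed for assembly of the large subunit, had -0.84 ± 0.07 SE in the Tnnt2 gate, and the nucleolar proteins Npm1 and Ncl had -0.40 and -0.30, all called. In the Cdh5 gate, where the median of the ribosomal protein genes was highest under TMM, 7 of the 52 were higher and 3 lower. Over all genes tested 26.9% were higher and 25.2% lower in this gate. Among 20 translation factors and other mRNAs with a TOP start, 10 were higher and 0 lower in the Cdh5 gate, and 4 were higher and 9 lower in the Tnnt2 gate. Eef1a1, which brings tRNA to the ribosome, and Tpt1 had 0.25 and 0.21 in the Tnnt2 gate, both called, but -0.02 and -0.06 on plain totals, where neither passed and 1 of the 20 was higher and 16 lower. Vim, an intermediate filament of mesenchyme, fell there (-1.29) and rose in the Cdh5 gate (1.94).

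Ho and Wt libraries were compared in each gate with edgeR, 2 libraries against 2, or 1 Ho against 2 Wt libraries in the Epcam gate, where the lone library is assumed to vary like the others. CPM were then scaled within the gate, so they differ from those given for the comparison of gates. No ribosomal protein gene was called in any of the 6 gates or over all cells. The share of all genes called was 0% in the Tnnt2, Cdh5 and Crabp1 gates and over all cells, 0.0159% in Hapln1, 0.0101% in Upk3b and 0.926% in Epcam. DESeq2 called 0 of the 81 genes in each as well. A gene that misses the threshold is not thereby shown to be equal in both genotypes. At an unadjusted p under 0.05 there were 4 of the 81 in the Tnnt2 gate, 12 in Cdh5, 10 in Hapln1, 0 in Crabp1, 8 in Upk3b and 0 over all cells. The share of all genes at that unadjusted p was 6.11% in Tnnt2, 3.53% in Cdh5, 5.82% in Hapln1, 1.58% in Crabp1, 4.06% in Upk3b and 4.64% over all cells. The Epcam gate, with 1 Ho library, was left out of this count.

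Counted by libraries that do not overlap, 37 of the 81 genes had both Ho libraries above both Wt libraries in the Cdh5 gate and 2 had both below. The shares over all genes were 16.1% and 16.3%. In the Upk3b gate the counts were 24 above and 0 below, with 15.2% and 16.7% over all genes, and in the Hapln1 gate 19 and 5, with 17% and 17.9%. The Tnnt2 gate had 14 above and 7 below (19.7% and 17.6% over all genes), and the Crabp1 gate 0 above and 3 below (14% and 15.6%). Over all cells they were 10 and 5 (20.6% and 17.4%). In the Epcam gate, with a single Ho library, 65 were above and 1 below (33.7% and 34.5%). Members of a subunit can move together within a library, so these genes are not independent of each other. Of 16 dissociation stress genes, 6 had an edgeR unadjusted p under 0.05 between genotypes in the Hapln1 gate and 5 in Upk3b. There were 3 in Tnnt2, 2 in Cdh5 and 0 in Crabp1, and 0 were called in each. Shares of all genes at that p are given above. The part of dissociation stress in the ribosomal protein differences was not tested.

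**Figure D3:**
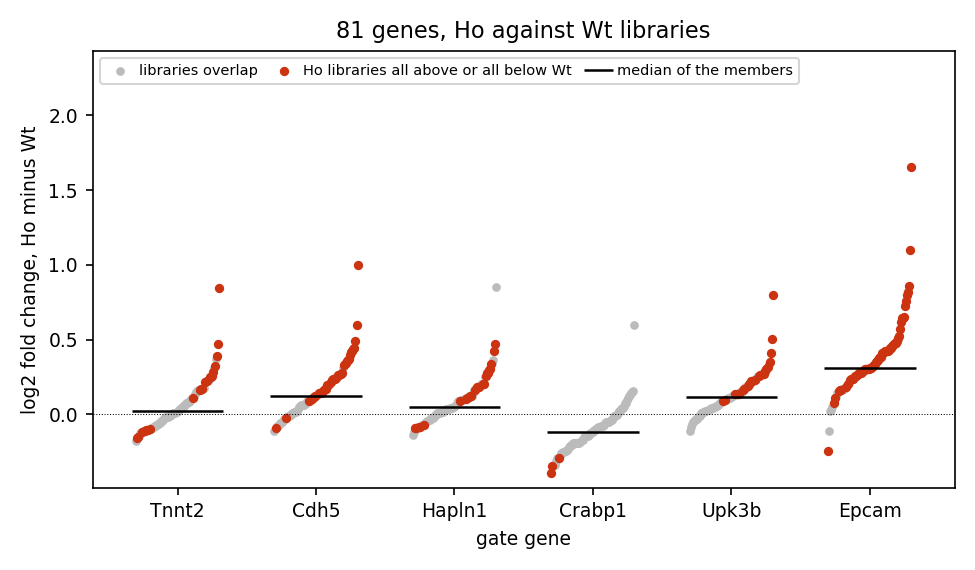
Log2 fold change of each of the 81 genes between Ho and Wt libraries (vertical axis) by gate (horizontal axis), ranked within the gate, with the median as a bar. Red marks genes whose Ho libraries lie all above or all below the Wt libraries, and no gene passed an adjusted p of 0.05 in any gate (the Epcam gate has 1 Ho library).

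Rps21 had the largest difference. This small subunit gene at chr2:180257377-180258445 had 839 CPM (Wt1), 471 (Wt2), 853 (Ho1) and 1495 (Ho2) in the Tnnt2 gate. Wt1 and Ho1 were nearly equal, Wt2 was low and Ho2 was high. The log2 fold change was 0.84 ± 0.32 SE (edgeR adjusted p = 0.801). Endothelial-gated levels were 1198, 617, 1268 and 2357 CPM, with 1.00 ± 0.35 SE (adjusted p = 0.992). The same order of Wt2, Wt1, Ho1 and Ho2 was found in the Upk3b gate (655, 1232, 1274 and 1987 CPM).

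In the Hapln1 gate Ho1 (950 CPM) fell below Wt1 (1015 CPM), and in the Crabp1 gate Ho1 had 741 CPM against 1386 in Wt1, so the groups overlapped. Distance between the libraries of a genotype was as large as that between genotypes. With Ho1 left out the Ho group is Ho2 alone, the highest library for Rps21, and the spread comes from the Wt libraries only. In that fit Rps21 passed in the Tnnt2, Hapln1 and Upk3b gates (log2 fold change 1.18, 1.26 and 1.08, edgeR adjusted p = 0.0045, 0.00171 and 1.33e-11), and without Wt1, which leaves 1 Wt library, it passed in the Upk3b gate (1.32). With all libraries in the fit and the filter on low counts dropped, Rps21 also passed in the Tnnt2, Cdh5, Hapln1 and Upk3b gates (edgeR adjusted p = 5.74e-08, 1.01e-13, 1.45e-24 and 4.14e-08). In the Hapln1 gate its log2 fold change was 0.86 in that fit and 0.85 with the filter. With the filter its unadjusted edgeR p there was 0.0171, from the same overlapping libraries. The p-values without the filter thus cannot be read as the spread between these libraries. Relative to the sum of the 81 genes Rps21 passed in the Tnnt2 and Hapln1 gates with all libraries. In the Epcam gate, where Ho2 is the only Ho library, its log2 fold change on that scale was 1.40. The mitochondrial share was highest in Ho2, the library highest for Rps21, and its part in the difference of Rps21 was not tested.

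Rps12, a small subunit protein of the beak region, had 470 CPM (Wt1), 407 (Wt2), 535 (Ho1) and 680 (Ho2) in the Tnnt2 gate. Both Ho libraries were above both Wt libraries there and in the Cdh5, Hapln1 and Upk3b gates. Its log2 fold change was 0.47 ± 0.14 SE in Tnnt2, 0.59 ± 0.15 SE in Cdh5, 0.47 ± 0.13 SE in Hapln1 and 0.50 ± 0.13 SE in Upk3b (edgeR adjusted p = 0.758, 0.992, 0.619 and 0.772). With Ho2 as the only Ho library, and the spread again from the Wt libraries alone, it passed in the Tnnt2, Hapln1 and Upk3b gates (edgeR adjusted p = 0.00396, 0.00792 and 0.00794).

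Rps26 had 1204, 960, 1359 and 1480 CPM in the same order of libraries in the Tnnt2 gate. Its difference was 0.39 ± 0.15 SE (edgeR adjusted p = 0.801), and it was 0.49, 0.42 and 0.41 in the Cdh5, Hapln1 and Upk3b gates. Wt2 was the lowest library for Rps21, Rps12 and Rps26 in each of the 6 gates. When the filter on low counts was dropped, Rps12 passed in the Tnnt2, Cdh5, Hapln1 and Upk3b gates (edgeR adjusted p = 0.0136, 0.000323, 1.79e-06 and 0.0117) and Rps26 in the Cdh5 and Hapln1 gates (0.00574 and 5.19e-06). The limit given for Rps21 in that fit holds for these values too.

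**Figure D4:**
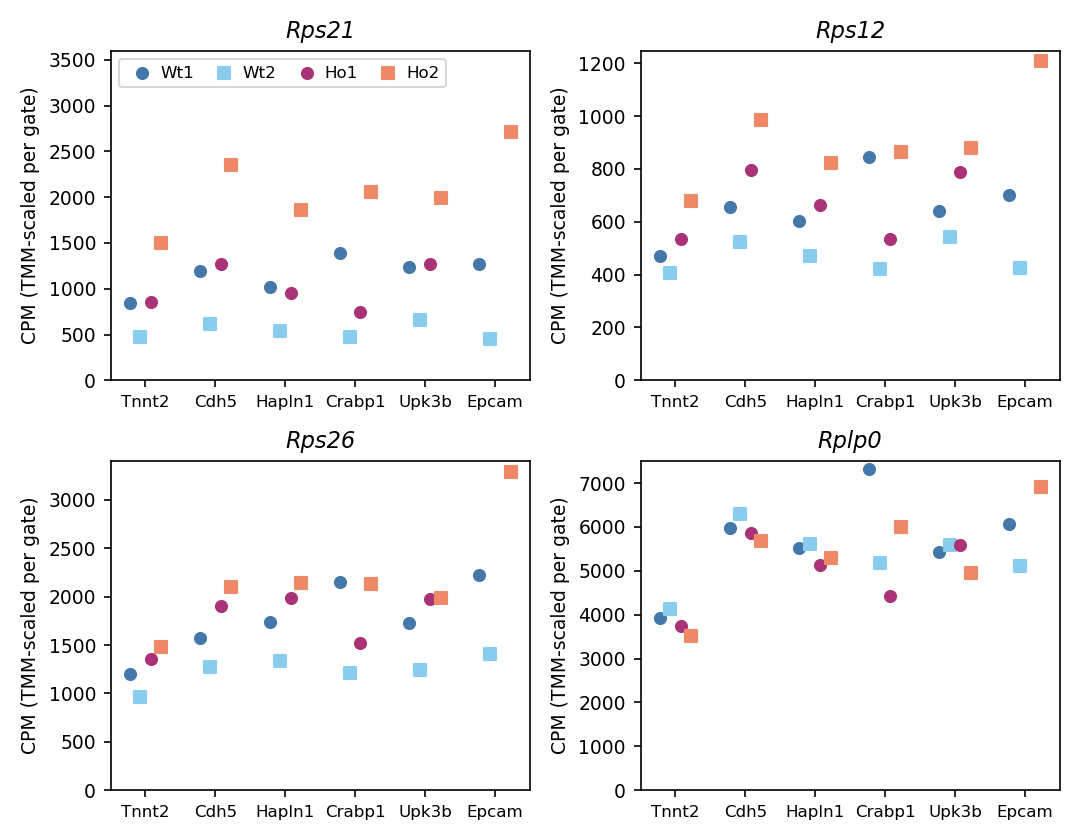
Level of Rps21, Rps12, Rps26 and Rplp0 (vertical axes, CPM from 0, TMM-scaled within each gate) in each gate (horizontal axes), with a point for each library. Wt2 is lowest and Ho2 highest for Rps21 in every gate, and the 4 libraries lie close together for Rplp0 outside the Crabp1 and Epcam gates.

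Other genes had Ho values that lay wholly below those of Wt. Rplp0 had 3931 CPM (Wt1), 4138 (Wt2), 3753 (Ho1) and 3523 (Ho2) in the Tnnt2 gate, where Ho was below Wt by 0.15 ± 0.15 SE on the log2 scale (log2 fold change -0.15, edgeR adjusted p = 0.896). It was also below in the Cdh5 and Hapln1 gates (-0.09 in both). Rpl3, which lies near the peptidyl transferase centre, had -0.16 in the Tnnt2 gate. Rpl29 had -0.03 in the Cdh5 gate, Rps6 and Rpl7a had -0.09 in Hapln1, and Rpl10 had -0.25 in Epcam. Rps9 and Rps19 had -0.39 and -0.29 in the Crabp1 gate. None passed.

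The 4 X-linked genes were set beside the Xist counts, which put Ho1 apart. Rps4x had 3597 CPM (Wt1), 3614 (Wt2), 3651 (Ho1) and 3322 (Ho2) in the Tnnt2 gate. Rpl10 had 535, 505, 546 and 406 CPM, Rpl36a 965, 807, 1078 and 1077 CPM, and Rpl39 2501, 1812, 2875 and 2525 CPM. Ho1 was the highest library for all 4 genes in this gate, although for Rps4x, Rpl10 and Rpl36a it was close to the next one. It was highest for Rps4x, Rpl10 and Rpl39 in the Cdh5 gate and for Rps4x, Rpl36a and Rpl39 in the Upk3b gate, where Rpl10 had 565 CPM in both Ho1 and Wt1. In the Hapln1 gate it was highest for Rpl39 only, and in the Crabp1 gate Wt1 was highest for all 4. None of the 4 passed between genotypes with the filter on low counts. With that filter dropped, Rpl39 passed in the Cdh5 and Hapln1 gates (log2 fold change 0.42 and 0.31, edgeR adjusted p = 0.0321 and 0.0052). Rpl36a then passed in the Hapln1 gate (0.30, edgeR adjusted p = 0.0177). As given for Rps21, p-values of the fit without the filter cannot be read as the spread between these libraries. The part of Xist status in these levels was not tested.

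Libraries of the same genotype were set side by side to show how far these genes move without a change of allele. With 1 library a side there is no test, and a gene was counted where the log2 ratio of TMM-scaled CPM was at least 0.25 in either direction. Wt2 was below Wt1 past that size for 12 of the 81 genes in the Tnnt2 gate, 21 in Cdh5, 20 in Hapln1, 81 in Crabp1, 19 in Upk3b and 68 in Epcam (43 on plain totals), and above it for 0 in each. Over all genes tested the share lower in Wt2 was 14.7%, 15%, 12.9%, 25.6%, 20.4% and 29%, and the share higher was 12.7%, 15.3%, 12.8%, 29.9%, 22.4% and 31%. By the median over gates 21 of the 81 genes were lower and 0 higher, and 60 were below 0 in every gate. No share over all genes was counted for the median over gates, nor for the sign in every gate.

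Ho2 was below Ho1 for 29 genes in the Tnnt2 gate, 13 in Cdh5, 8 in Hapln1, 0 in Crabp1 and 20 in Upk3b. It was above for 2, 2, 3, 34 and 1. The shares over all genes were 14.7%, 21.5%, 15.8%, 33.3% and 21.1% lower and 15.2%, 22.7%, 16.1%, 40% and 24.1% higher. On plain totals the Tnnt2 counts were 11 lower and 4 higher, with a median of all genes of 0.12, and 10 were lower in the Upk3b gate. The Crabp1 value rests on the 25 cells of Ho1. By the median over gates 12 genes were lower and 2 higher in Ho2, again with no share counted over all genes.

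Rps21 had the largest ratio in both pairs, with a median over gates of -0.94 for Wt2 to Wt1 and 0.89 for Ho2 to Ho1. Rps29, a zinc-binding small subunit protein, had -0.71 and Rps27, another zinc-binding small subunit protein, -0.70 between the Wt libraries, where Rpl38 had -0.64. Rps29 stood at 2107 CPM (Wt1), 1390 (Wt2), 2236 (Ho1) and 2102 (Ho2) in the Tnnt2 gate, with Wt2 alone low. Rps27 had 993, 631, 989 and 1110 CPM and Rpl38 2058, 1475, 2321 and 1814 CPM, again lowest in Wt2.

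No gene was higher in Wt2 by 0.25. The most positive medians were those of Rpl3 and Rplp0 (both 0.03), followed by Rpl10a with -0.02. Between the Ho libraries Rps12 (0.31) and Rps27 (0.17) followed Rps21, and Rpl36 and Rpl35, both of the large subunit, were lowest relative to Ho1 (-0.44 and -0.43). In the Tnnt2 gate Rpl36 had 2198 CPM (Wt1), 1821 (Wt2), 2440 (Ho1) and 1702 (Ho2). Rpl36 and Rpl35 were also lower in Wt2 than in Wt1, with medians of -0.38 and -0.45.

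The genes lowest in Wt2 had short mRNAs. The 81 genes have a median mRNA length of 878 bases (345 to 5179, GENCODE M21), against 2953 bases over all genes tested. Each length is that of the gene's longest protein-coding transcript annotated as principal. For Rps15a, Rps20 and Rpl18 these were 5179, 3706 and 2989 bases. Which transcripts the cells made was not tested. Across the 81 genes, which share the 2 libraries and are not independent, Spearman's rho between length and the ratio of Wt2 to Wt1 was 0.36 in the Tnnt2 gate and between 0.33 and 0.44 in the 5 other gates. Over all genes tested it lay between -0.09 and 0.08. For Ho2 to Ho1 rho in the Tnnt2 gate was 0.13 across the 81 genes and 0.16 over all genes, and for Ho against Wt it was -0.42 and 0.14. The genotype comparison shares the Wt libraries with the first.

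In the Tnnt2 gate the 10 ribosomal protein genes with mRNAs under 500 bases had a median ratio of -0.38 for Wt2 to Wt1, and 88 other genes of that length had -0.20. At 500 to 600 bases the medians were -0.07 for 9 ribosomal protein genes and -0.10 for 89 others. From 800 to 1200 bases they were -0.05 and 0.02. Under 500 bases the medians were -0.24 and -0.28 for Ho2 to Ho1, and 0.23 and 0.08 for Ho against Wt. At the shortest lengths the other genes thus had medians of the same sign. Rps21, Rps29, Rps27 and Rpl38 have mRNAs of 394, 390, 345 and 457 bases, and Rpl3 and Rplp0 of 1351 and 1358 bases. The part of mRNA length in the library and genotype differences was not tested.

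**Figure D5:**
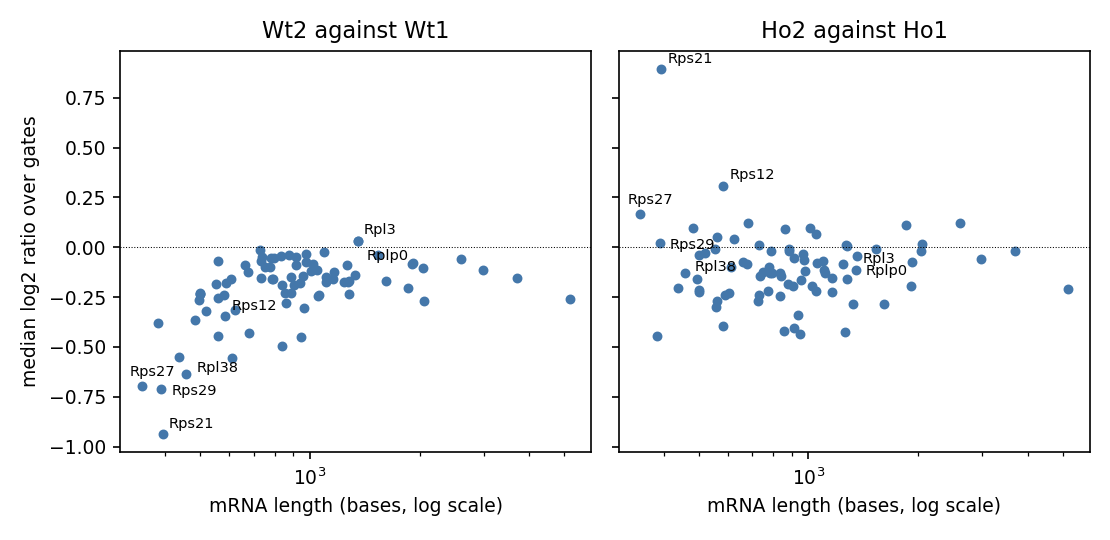
Median over gates of the log2 ratio between 2 libraries of a genotype (vertical axis) against mRNA length (horizontal axis, bases, log scale) for the 81 genes, with Wt2 to Wt1 on the left and Ho2 to Ho1 on the right. Rps21, Rps29, Rps27 and Rpl38, all under 500 bases, lie lowest on the left, with Rps21 at -0.94, and Rps21 is the highest point on the right at 0.89.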

How the data were processed

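The authors aligned reads to mm10 with Cell Ranger 6.1.1, used Seurat 4.1.0 and deposited raw UMI counts per gene and barcode, for barcodes called as cells. Here barcodes had to hold 500 to 50000 UMIs, 500 to 6000 genes and no more than 20% mitochondrial UMIs. A gate required 2 UMIs of its gene and a level per 10000 UMIs of 5 (Tnnt2), 3 (Hapln1, Crabp1) or 1 (Cdh5, Upk3b, Epcam). Leaving out barcodes of 2 or more gates stood in for a doublet caller, and sums needed 20 cells. edgeR 4.0.16 in R 4.3.3 fitted all genes passing filterByExpr, and DESeq2 1.42.0 was an alternative. Each gate was compared with the mean of the other 5 with library as a block, and Ho with Wt without a block. The study's per-cell test was not used, since cells are not replicates. CPM of ribosomal protein genes by library are TMM-scaled, from the fit over all gates in gate comparisons and from the fit of the gate between genotypes; marker sums, Dlx5 and mean levels use plain totals, and shares use all UMIs. SE is the log2 fold change over the square root of the F statistic. The ratios of libraries used a prior count of 2. Intervals cover counting error only. Fits were checked on simulated counts. Positions and mRNA lengths are from GENCODE M21 (GRCm38), where 99.8% of the identifiers were found. A length is that of the gene's longest protein-coding transcript annotated as principal.

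Genes were named by a rule: the 5 most and 5 least abundant, the 3 largest called changes in each direction per gate, the 3 largest in each direction between genotypes whose libraries do not overlap, the 3 largest median ratios between libraries, and paralog pairs, X-linked, P-stalk and disease genes. Members, lists and rules were chosen with earlier results of these data known. Rps29 in single gates, Rps26 and Rpl38 by library, and list genes named singly were chosen after their values were seen. Alternatives were other scaling, filters, tools, gate levels, depth limits, blocks and libraries left out. Assigning cells of the Cdh5 and Hapln1 gates to Cdh5, scaling to the sum of the 81 genes and the crossed block were chosen after seeing the data. Some genes that the rule names are not reported here.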

Additional observations from a re-analysis of the deposited data

Results flagged for a closer look

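Rows outside the comparisons also held UMIs. Rpl3l, the muscle variant of Rpl3 that lies below the minimum of 1000, had 255 UMIs over all barcodes, with 30 (Wt1), 70 (Wt2), 104 (Ho1) and 51 (Ho2). Of these, 211 were in the Tnnt2 gate, 10 in Cdh5, 2 in Hapln1, 2 in Crabp1 and 0 in Upk3b and Epcam, or 1.21 CPM in Tnnt2 and 0.309 in Cdh5 on plain totals pooled over the libraries, with no TMM scaling. Rpl39l, the variant of Rpl39, had 253 UMIs, with 43, 107, 75 and 28 in the same order of libraries, and, on the same scale, 0.132 CPM in Tnnt2, 0.804 in Cdh5 and 0.664 in Hapln1. The 6 rows of processed copies held 75472 UMIs, led by Rpl9-ps6 with 7235, 8561, 12113 and 10253. Whether reads of the parent genes were counted in these rows was not tested.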

How the results depend on the processing

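Depth, 2 libraries a genotype and uneven cell numbers limited these comparisons, and the cause of the changes below was not tested. The share difference between Ho and Wt turned to -0.0806 points in the Tnnt2 gate with the median over cells, and over all cells to 0.0282 without the 10 most abundant members. Leaving out 1 library gave -0.199 to 0.996 (Tnnt2), 0.465 (without Wt2) to 1.95 (without Wt1) for Cdh5, 0.192 (without Wt2) to 1.96 (without Wt1) for Upk3b, 1.23 to 4.20 (Epcam), -0.0603 to 1.72 (Hapln1), -4.38 to 1.39 (Crabp1) and -1.68 to 1.31 (all cells). Cdh5 minus Epcam turned to -0.133 with barcodes of several gates kept, -0.196 without the 10 most abundant members, -0.0230 and -0.437 with gate levels doubled and halved, -0.163 at 5000 to 20000 UMIs and -0.256 with Cdh5 before Hapln1, and ranged from -0.672 to 0.707 with a library left out. Hapln1 minus Crabp1 turned to -0.770 (levels doubled) and -0.264 (5000 to 20000 UMIs), with -0.506 to 1.41, and Upk3b minus Epcam had -1.35 to 0.198, with a library left out.

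Counts of higher genes in the Tnnt2 gate were 0 on plain totals and at 5000 to 20000 UMIs, 2 without library in the model and in Wt or Ho libraries alone, 26 relative to the members' sum, and 2 to 6 with a library left out. Lower genes numbered 71 on plain totals, 61 at that depth, 8 with every gene tested or no library in the model, 1 in Wt and 11 in Ho alone, and 6 to 22. In the Cdh5 gate higher genes were 20 (no library), 4 (Wt alone), 18 (Ho alone), 12 (members' sum) and 19 to 46, and lower genes 1 (plain totals) and 21 (members' sum). In the Hapln1 gate 6 were higher by the members' sum, and lower genes were 6 (RLE, at least 10 counts, members' sum), 2 (plain totals, 5000 to 20000 UMIs), 10 (DESeq2), 4 (levels doubled), 0 (no library, Wt alone, Ho alone) and 0 to 2. In the Crabp1 gate higher genes were 3 (plain totals) and 13 (members' sum), and lower genes 5 (plain totals), 34 (at least 10 counts), 2 (no library), 0 (Wt alone), 3 (levels doubled), 1 (5000 to 20000 UMIs), 10 (members' sum) and 3 to 49. In the Upk3b gate higher genes were 20 (no library), 6 (Wt alone), 17 (Ho alone, 5000 to 20000 UMIs) and 20 to 36, and lower genes 3 (plain totals), 20 (members' sum) and 0 (no library, Wt alone, Ho alone, any library left out). In the Epcam gate higher genes were 35 (plain totals), 11 (at least 10 counts), 1 (no library, Wt alone), 6 (5000 to 20000 UMIs), 14 (members' sum) and 1 to 3, and lower genes 8 (plain totals, at least 10 counts), 0 (Ho alone), 26 (members' sum) and 3 to 19. Scaling to the members' sum centres the members as a set, so genes on both sides follow from it.

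Between Ho and Wt, testing every gene with a UMI called 2 members in Tnnt2, 7 in Cdh5, 11 in Hapln1 and 2 in Upk3b, where 1.13%, 0.673%, 0.846% and 0.411% of all genes were called. These calls have the limit given for Rps21 with the filter dropped. Scaling to the members' sum called 1 in Tnnt2, Hapln1 and Epcam, at least 10 counts called 1 in Epcam, and leaving out a library called 0 to 2 in Tnnt2, Hapln1 and Upk3b. Deviations of libraries with the same replicate number had a correlation of -0.10 in Tnnt2 and -0.48 over all cells. With 2 libraries a genotype this cannot show whether libraries shared a batch. The replicate block called 0 members in each gate fitted. The crossed block, chosen after seeing the data, called 1 each in Tnnt2, Hapln1 and Upk3b. Between libraries, a fold of 0.5 left a median over gates of 6.5 members for the Wt pair and 2 for the Ho pair, which had 13 on plain totals. Of genes named singly, Rpl29 between genotypes in the Cdh5 gate turned to 0.0374 with levels halved, and Rps27l in the Tnnt2 gate to -0.0226 on plain totals.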

Other observations

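Genes of growth control, p53 response and dissociation stress also differed between the gates. Of 18 growth control genes 11 were higher and 2 lower in the Tnnt2 gate (median log2 fold change 0.24), against 35.5% and 31.8% of all genes tested. On plain totals 6 were higher and 5 lower. Myc, a driver of ribosome synthesis, fell in this gate (-1.45 ± 0.12 SE, edgeR adjusted p = 5.74e-10) and Mycn had -0.04. In the Cdh5 gate Myc rose by 0.93 ± 0.11 SE and Mycn fell (-0.94). Of 13 tested p53 targets 8 were higher and 0 lower in the Tnnt2 gate by edgeR (9 at an unadjusted p under 0.05), and 5 higher and 2 lower on plain totals, with Cdkn1a, a brake on the cell cycle, at 1.84 ± 0.20 SE and Mdm2, which removes p53, at 0.30 but at 0.05 on plain totals. Of 16 dissociation stress genes 13 were higher in the Tnnt2 gate, and 8 on plain totals, with Fos at 2.24 ± 0.19 SE. In both the Cdh5 and the Upk3b gates 9 were higher and 3 lower, where 26.9% and 20.2% of all genes were higher and 25.2% and 20.1% lower. In the Crabp1 and Epcam gates 11 and 12 were lower, against 20.8% and 22.8% of all genes.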
